A study of Mus musculus with 44 samples.

Results

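Snai1 binding sites that were called in cells with a mutant Snai1, were absent from the peak lists of wild-type Snai1 and empty-vector cells, and lay away from the ends of genes are described here. A site was a peak of the mutant list that shared no base with a peak of either other list and whose summit lay more than 5 kb from both annotated ends of every RefSeq gene of GRCm38. The sites were thus chosen by where the deposited lists call a peak, a measured value, so what follows from that choice is described and not tested. Of 12037 mutant peaks, 3339 (27.7%) met both conditions. The wild-type Snai1 list held 2929 peaks and the empty-vector list 137. Another 9 mutant-only peaks lay on unplaced scaffolds with no annotated gene, so they had no distance and were left out. The cells were HPC7, a mouse blood progenitor line kept in culture with stem cell factor. All 3 groups carried an MSCV-IRES-GFP retrovirus, and the cells used had been sorted for GFP and grown further. The first group expressed mutant Snai1 with a phenylalanine-to-alanine substitution that weakens binding to the demethylase Lsd1 (gene Kdm1a), the second expressed wild-type Snai1, and the third carried the vector with no insert. Snai1 ChIP had 4 technical replicates per construct and was deposited as 1 peak list per construct, so no site has a replicate check and a construct cannot be told apart from its cells, its ChIP or its sequencing depth. H3K4me1 and H3K4me2, which mark enhancers and promoters, had 3 libraries each per construct, and 2 control libraries with IgG were made in the wild-type Snai1 cells only.

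Snai1 is a zinc-finger repressor of the Snail family that binds E-box elements, chiefly CAGGTG. Its N-terminal SNAG domain recruits Lsd1, which removes methyl groups from lysine 4 of histone H3 as part of the CoREST complex. In epithelial cells the family is known for silencing Cdh1, and in blood cells Lsd1 also works with the SNAG-domain repressors Gfi1 and Gfi1b. Sites away from gene ends include enhancers and start sites of shorter transcripts inside genes.

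Sequence could be read where a site lay over a start window in a RefSeq table of GRCm38.p6 (250 bases before to 50 after each listed start), which holds alternative starts inside genes. Of the 3245 sites on chromosomes that the table covers, 99 (3.05%) overlapped 107 such windows of 96 genes, and 71 of them had their summit in the window. The stretches shown are those of the strongest sites with the E-box near the summit (Ncoa4, Arhgef3, Bfsp2, Kdm4c and Cd46), of Dpy30, and of a pair of sites of like strength without it (Slc15a4 and Abhd4). Each runs 5′ to 3′ along its gene, covers up to 60 bases on either side of the summit, and stops before the start site. Capitals mark CAGGTG or its reverse complement CACCTG.
Ncoa4, chr14:32165634-32165754 (+): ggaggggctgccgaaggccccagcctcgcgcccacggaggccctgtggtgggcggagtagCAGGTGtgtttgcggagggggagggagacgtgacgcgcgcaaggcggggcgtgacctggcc
Arhgef3, chr14:27335870-27335990 (+): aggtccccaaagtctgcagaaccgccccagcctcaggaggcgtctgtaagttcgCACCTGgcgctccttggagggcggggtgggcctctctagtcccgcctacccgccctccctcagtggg
Bfsp2, chr9:103449294-103449414 (-): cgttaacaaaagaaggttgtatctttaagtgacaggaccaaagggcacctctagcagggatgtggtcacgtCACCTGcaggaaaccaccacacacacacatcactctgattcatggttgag
Dpy30, chr17:74316555-74316644 (-): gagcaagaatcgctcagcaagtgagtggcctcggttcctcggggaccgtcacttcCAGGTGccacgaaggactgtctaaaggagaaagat
Kdm4c, chr4:74251629-74251702 (+): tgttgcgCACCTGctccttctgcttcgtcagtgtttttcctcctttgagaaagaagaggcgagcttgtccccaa
Cd46, chr1:195092270-195092390 (-): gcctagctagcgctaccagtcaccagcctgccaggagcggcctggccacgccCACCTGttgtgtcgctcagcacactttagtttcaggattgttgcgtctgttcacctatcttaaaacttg
Slc15a4, chr5:127617475-127617595 (-): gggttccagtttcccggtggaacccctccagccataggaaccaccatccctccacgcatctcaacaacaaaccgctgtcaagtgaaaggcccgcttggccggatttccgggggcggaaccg
Abhd4, chr14:54259116-54259236 (+): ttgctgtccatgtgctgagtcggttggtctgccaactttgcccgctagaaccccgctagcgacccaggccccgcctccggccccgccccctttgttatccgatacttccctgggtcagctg

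The Ncoa4 site, at an alternative start of the gene for a ferritin autophagy receptor, was 16.0-fold enriched over local background, and the centre of its E-box lay 2 bases from the summit. At Arhgef3, which encodes an activator of RhoA, the site was 14.6-fold enriched with the E-box 4 bases from the summit. The summit at Kdm4c, a demethylase of histone H3 lysine 9, lay 4 bases from the E-box at 8.68-fold, and that at Cd46, a complement regulator, 5 bases from it at 7.09-fold. The Bfsp2 site (11.1-fold) had its summit 14 bases from the E-box. Dpy30, a core subunit of the Set1 and MLL methyltransferases that place H3K4 methylation, had a 9.61-fold site with an E-box centred 29 bases from the summit. The sites at Slc15a4 (8.46-fold) and Abhd4 (8.17-fold) had no CAGGTG in the whole start window.

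CAGGTG or its complement occurred in 36 of the 107 start windows under these sites (33.6%), against 11 of 29 windows (37.9%) under distal mutant peaks that overlap a wild-type peak and 20.2% of all 32851 start windows. These counts take the whole window, parts outside the site included. Of 108 pairs of site and window, 27 had CAGGTG or its complement inside the site. Within 25 bases of the summit, where the 51-base stretch lay wholly in a window, it occurred in 10 of 66 sites (15.2%). The share was 3 of 10 at distal peaks over a wild-type peak and 71 of 232 (30.6%) at peaks over a wild-type peak near gene ends. It was 112 of 1714 (6.53%) at mutant-only peaks near gene ends and 3.81% in the middle 51 bases of every start window. In the 10 sites with the E-box the summit lay a median of 8.5 bases from its centre. Other letters were searched on both strands in the same 107 windows. The GC box GGGCGG occurred in 46.7% of them, against 35.7% of all start windows, the ETS-type CCGGAAG in 17.8% against 8.86%, and the GATA-type AGATAA in 6.54% against 11.2%. Any E-box, CANNTG, of which CAGGTG is one form, occurred in 76.6% against 72.3%. The windows under the sites had a median GC content of 57%, against 52.7% for all start windows, so the motif shares compare sequences of unequal base composition. A match is a description of letters, and neither binding to it nor its absence elsewhere was tested.

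**Figure D1:**
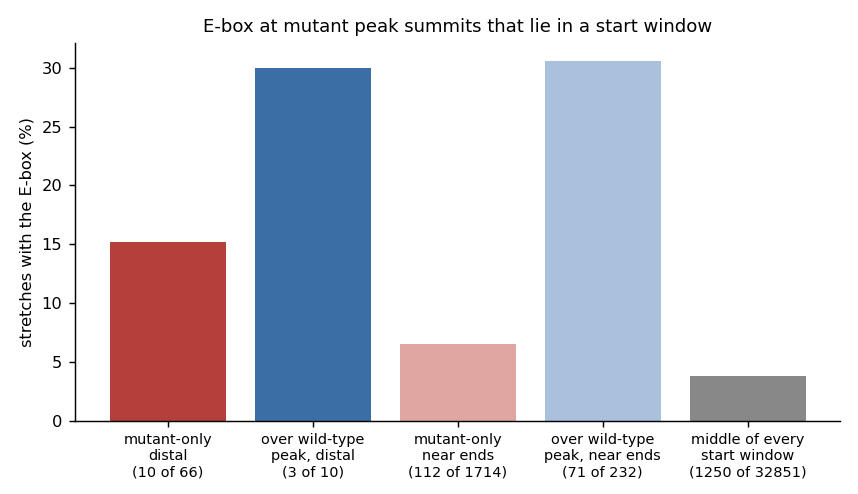
Share of 51-base stretches centred on the summit of a mutant peak that hold CAGGTG on either strand, for 4 classes of mutant peaks whose summit lies in a RefSeq start window, beside the middle 51 bases of every start window. The mutant-only distal sites stood at 15.2%, between mutant-only peaks near gene ends (6.53%) and peaks over a wild-type peak near gene ends (30.6%).

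The sites were weaker than the distal mutant peaks that overlap a wild-type peak and close to the middle of the mutant list. Their fold enrichment, the peak caller's value over local background, ran between 1.33 and 27.4 with a median of 5.15, with quartiles of 4.37 and 6.22. The −log10 q ran between 1.47 and 112 with a median of 7.41. Width had a median of 263 bases. The 873 distal mutant peaks that overlapped a wild-type peak had a median fold of 7.78, a median −log10 q of 17.97 and a median width of 379 bases. The whole mutant list had a median fold of 5.54 and a median −log10 q of 8.40. Among the 4212 distal mutant peaks ranked by −log10 q, 11 of the strongest 100 were mutant-only, then 35.5% of those ranked 101 to 500, 63.6% of ranks 501 to 1000, 82.9% of ranks 1001 to 2000, 90.2% of ranks 2001 to 3000 and 93.8% of the rest. Peak strength and the choice of sites rest on the same calls, so these values are a description. The 3339 sites held 771 distinct pairs of fold and −log10 q, and 107 sites shared the pair 4.96-fold and 5.75. In all, 85.9% of the sites shared their pair with at least 1 other site.

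**Figure D2:**
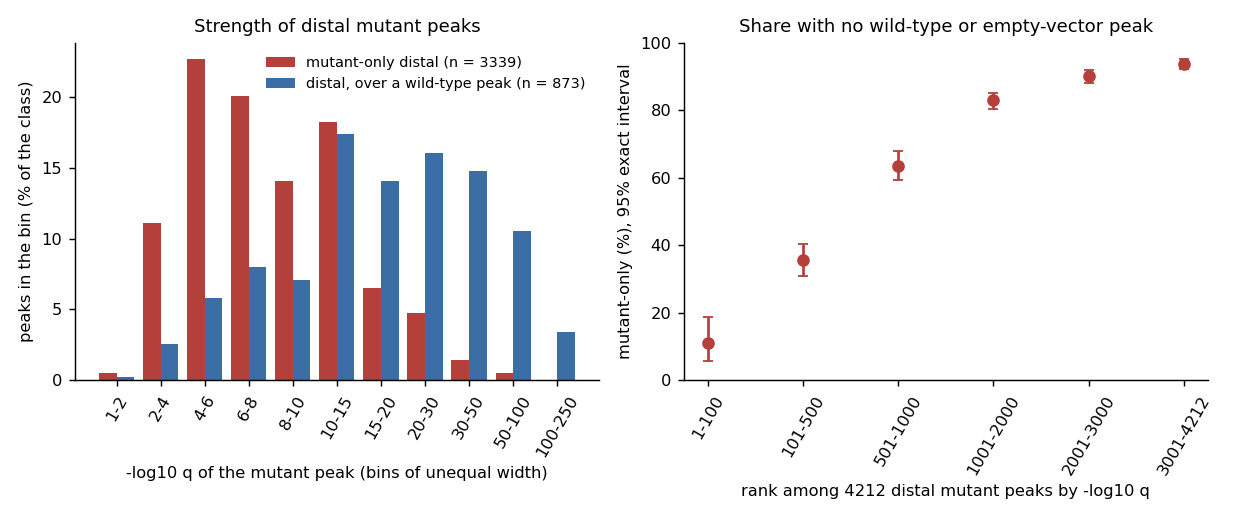
Left, share of peaks in bins of −log10 q for the 3339 mutant-only distal sites and the 873 distal mutant peaks over a wild-type peak (bins of unequal width). Right, share of mutant-only peaks by rank of −log10 q among the 4212 distal mutant peaks, with exact 95% binomial intervals, from 11% in the first 100 to 93.8% in the last 1212.

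The strongest of all, inside Bicdl1 at chr5:115715988-115716960, was 27.4-fold enriched with a −log10 q of 112 and stood at rank 73 of the whole mutant list. Bicdl1 encodes an adaptor for dynein-driven transport, the nearest end of the gene was 15271 bases away, and the nearest wild-type peak 79900 bases. Among the 12 sites with the highest −log10 q, 6 lay inside a gene with a measured start window. The others inside such genes were in Trp53i11 (18.4-fold), Cacna1b (22.2-fold), which encodes a neuronal calcium channel, Pax7 (20.7-fold), a muscle precursor transcription factor, Kndc1 (18.4-fold) and Rbm38 (14.4-fold), an RNA-binding protein. The remaining 6 lay in no gene with a measured start window. Those nearest to A830029E22Rik (22.3-fold), Commd7 (20.1-fold) and Psen2 (17.0-fold), a catalytic subunit of gamma-secretase, lay within 20 kb of the gene named. Those whose nearest measured genes were 4932412D23Rik, Slc17a6 and Gm7550 lay 85300 to 118725 bases from them. The fold of these 12 sites ran between 14.4 and 27.4, and only the Rbm38 site had a wild-type peak within 10 kb, at a gap of 6790 bases.

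The nearest wild-type peak lay a median of 89107 bases away, and 113 sites (3.38%) had one within 1 kb. Those closest to the overlap rule were sites in Plxnc1, Susd3 and Cap1, with gaps of 9, 33 and 46 bases to a wild-type peak. Just on the other side of that rule, distal peaks in Ift122 and Crtc1 shared 29 and 44 bases with one. At the distance rule, sites at Extl1, Mtg2 and Tmem19 lay 5002, 5012 and 5014 bases from a gene end, and mutant-only peaks at Cenpu, Ubxn11 and B4galt5 lay 4998, 4993 and 4991 bases from one. The Ubxn11 peak, left out by the rule, was 15.2-fold enriched, within the fold range of the 12 strongest sites. Its −log10 q of 48.0 was below the lowest of those 12, 57.4 at Rbm38.

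Most sites lay inside genes. The summit fell within an annotated gene at 2355 of 3339 sites (70.5%, exact 95% interval 69.0 to 72.1), against 68.6% (65.4 to 71.7) of the 873 distal peaks over a wild-type peak. Genes cover 42.9% of the 2091 Mb that lie more than 5 kb from every gene end, and the sites numbered 2.62 per Mb inside genes and 0.824 per Mb outside. The distance between summit and nearest gene end had a median of 14480 bases. It was up to 10 kb at 31.9% of sites, up to 25 kb at another 40.04%, and over 100 kb at 2.16%, with the intervals of each share overlapping those of the distal peaks over a wild-type peak. The site farthest from any gene end, in Dpp6, a potassium-channel subunit of neurons, lay 326848 bases from one and was 5.54-fold enriched. Of 1763 sites in genes of known strand, 52.9% (50.5 to 55.2) lay nearer the start than the end of the gene, against 60.8% (56.1 to 65.3) of 449 distal peaks over a wild-type peak; these intervals do not overlap, and the difference itself was not tested. The median position was 47.8% of the gene length from the start, against 40.3% for the peaks over a wild-type peak. Outside genes, 53.0% (49.4 to 56.6) of 749 sites lay upstream of the nearest measured gene. Within 1 kb of any listed start, alternative starts included, were 4.53% of sites and 4.39% of the distal peaks over a wild-type peak.

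Chromosome 17 had the densest sites, 247 at 3.58 per Mb of this territory, followed by chromosome 11 with 2.75 per Mb. The X chromosome had 31 sites at 0.221 per Mb and the Y chromosome 1. Distal peaks over a wild-type peak were also densest on chromosome 17 (0.999 per Mb) and sparse on the X (0.0286 per Mb). Mutant-only peaks made up 75.2 to 84.6% of the distal mutant peaks on each autosome.

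**Figure D3:**
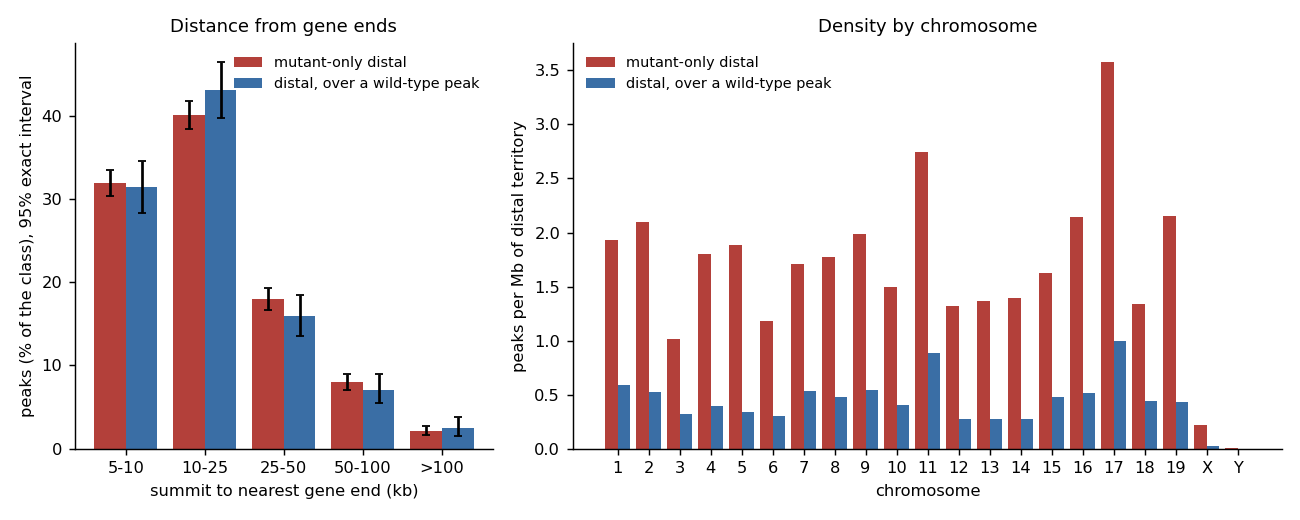
Left, share of sites by distance from the summit to the nearest gene end, with exact 95% binomial intervals, for mutant-only distal sites and distal mutant peaks over a wild-type peak. Right, peaks per Mb of territory over 5 kb from gene ends on each chromosome. Both classes were densest on chromosome 17, at 3.58 and 0.999 per Mb.

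Sites often came in groups. Of the 3339, 824 (24.7%) lay within 10 kb of another site, in 377 groups. The largest group was 8 sites at chr15:76189932-76207450 in Plec, which encodes plectin, a linker of intermediate filaments. Sema4d, a semaphorin of lymphocytes, held a group of 6, and Nfatc2, a calcium-regulated transcription factor of T cells, a group of 5. In all, 1454 genes with a start window held at least 1 site and 162 held 3 or more. These genes were long, with a median of 75.7 kb, against 87.7 kb for those that hold a distal peak over a wild-type peak and 14.5 kb for all genes with a window. The share of genes that were nearest to or held a site was 3.68% for genes up to 10 kb and 26.7% for those over 100 and up to 200 kb. By the distance rule no gene up to 10 kb could hold a site, so part of these length differences follows from the choice of sites.

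Gse1 held more sites than any other gene, 14 in a gene of 353 kb at chr8:120228501-120581383. Its product is a subunit of Lsd1 and HDAC complexes. The sites were spread along the gene, with the first 8.38 kb and the last 336 kb from the start. Their fold ran between 4.67 and 16.9 with a median of 6.12. The strongest, at chr8:120456432-120457052, lay 228 kb into the gene and had a −log10 q of 52.4. A group of 3 between 141 and 143 kb into the gene was 10.9-fold, 9.41-fold and 10.6-fold enriched. Another 3 distal mutant peaks in Gse1 overlapped a wild-type peak. Plec, Zmiz1, Tiam1 and Kalrn held 8 each. Plec is 60.4 kb long, and 4 more of its distal peaks overlapped a wild-type peak.

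Among gene lists drawn up by function, stem and progenitor cell genes most often had a site nearest to or inside them, 15 of 30 genes (50%). All genes with a start window gave 2446 of 25204 (9.70%). Distal mutant peaks over a wild-type peak were nearest to or inside 8 of the same 30 genes and 831 of the 25204. Erg, a factor of the haematopoietic stem cell programme, had 5 sites, the most significant of them 7.64-fold at chr16:95432531-95432963 in the gene. Runx1, a master regulator of blood formation, had 5 sites of 4.78- to 6.75-fold, and 6 more distal peaks there overlapped a wild-type peak. Meis1, a homeobox factor, had 2 (up to 5.86-fold), and Kit, the receptor for stem cell factor, had 3, of which 1 lay inside the gene and 2 outside it (4.22- to 5.49-fold). The listed genes with a site had a median length of 115 kb and those without one 15.3 kb.

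Cytokine signalling genes came next, with 9 of 30, and 8 of the 30 had a distal mutant peak over a wild-type peak. The site inside Stat5b, a transducer of cytokine receptor signals, was 12.3-fold enriched, and those nearest to Socs1, an inhibitor of Jak kinases, and in Jak1 were 6.02-fold and 5.52-fold. Of lymphoid genes 7 of 26 had a site, at Ikzf1 (12.4-fold), Pax5 (9.92-fold), Notch1 (5 sites, up to 7.82-fold) and Ccr7 among others. Of cell cycle genes 8 of 30 had one, with E2f3 at 9.04-fold inside the gene. The sites nearest to Ccnd1 (7.03-fold), Mki67 (6.55-fold) and Cdkn2b (6.12-fold) lay 89559, 19482 and 58204 bases outside these genes. Epithelial genes, the family's known targets in other tissues, had a site at 7 of 30, led by the tight-junction genes Tjp3 (11.7-fold) and Cldn4 (10.5-fold). Cdh1, named after its value was seen, had a site of 4.02-fold inside the gene, 26981 bases from the nearest end.

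The list of erythroid and megakaryocytic genes had a site at 6 of 29, led by Nfe2l2 (9.28-fold), Ank1 (8.48-fold) and Bcl11a (7.53-fold), a silencer of fetal globin. Nfe2l2, though on the list, is not particular to these lineages. The Bcl11a site lay 69598 bases outside the gene. Mast cell genes had one at 5 of 24, among them the tryptase gene Tpsab1 (6.89-fold) and the granule proteoglycan gene Srgn (5.92-fold). Of enzymes that write or erase H3K4 methylation, 5 of 26 had a site. Besides Dpy30 these were the methyltransferase genes Setd1b (9.04-fold), Kmt2a (5.83-fold) and Smyd3 (up to 4.95-fold). The fifth, named after its value was seen, was the demethylase gene Kdm5a, whose site (4.77-fold) lay 6663 bases outside it, inside Ccdc77 and over listed starts of that gene. Myeloid genes had a site at 4 of 30, with Ncf4 at 7.29-fold, mesenchymal genes at 3 of 30, and Lsd1 complex genes at 3 of 26, which were Gse1, Mta3 (6.02-fold) and Phf21a (5.54-fold). Mesenchymal genes with a site were Tgfbr1 (5.83-fold), Tgfbr2 (6.42-fold) and Smad3 (6.22-fold), which transmit TGF-beta signals. The Tgfbr1 site lay inside the gene, and those of Tgfbr2 and Smad3 lay 144251 and 79384 bases outside theirs. Housekeeping genes had a site at 2 of 26 and axon and adhesion genes at 2 of 30, the lowest share of the 13 lists. Axon and adhesion genes without a site had a median length of 940 kb.

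**Figure D4:**
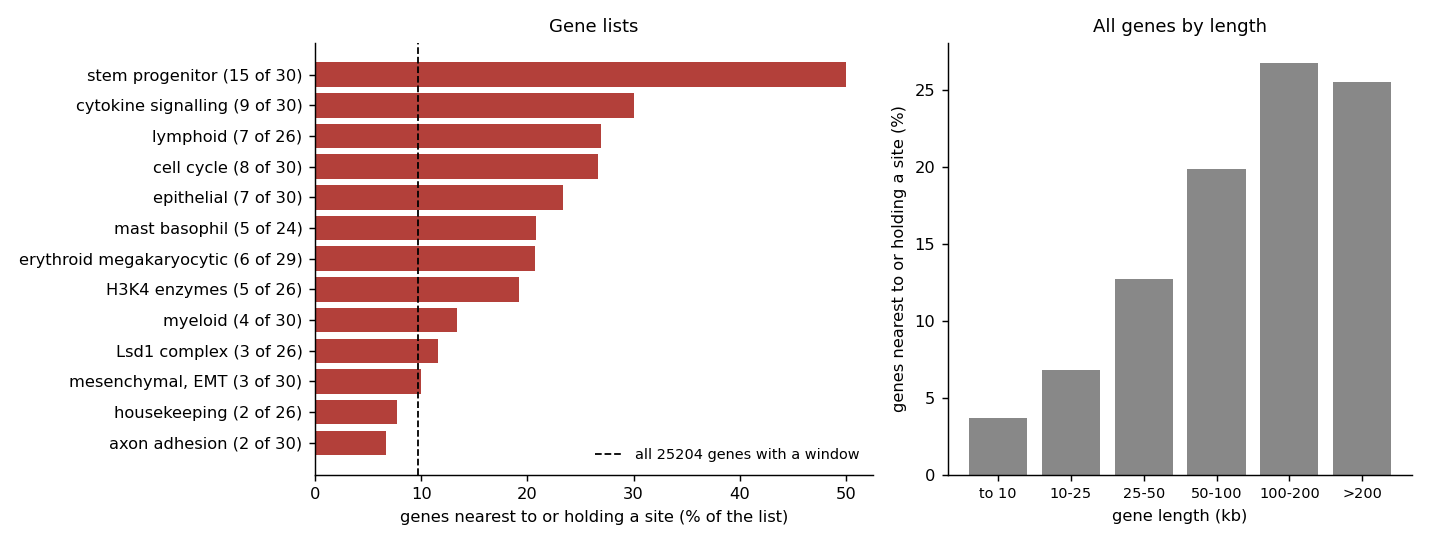
Left, share of each gene list that was nearest to or held a mutant-only distal site, with counts, beside the share of all 25204 genes with a start window (dashed line, 9.70%). Right, the same share for all genes by gene length. Stem and progenitor genes stood highest at 50%, and genes over 100 kb had a site more often than shorter ones. By the distance rule a gene up to 10 kb could be nearest to a site but could not hold one.

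Histone methylation was counted in start-site windows of genes, not at the sites themselves, so it was read at the gene nearest to each site. The table's windows span 5 kb around the start per its name, and their coordinates were not used here. Window totals were 8687538 to 18185750 reads for H3K4me2, 4040418 to 8807370 for H3K4me1, and 2713014 and 3353574 for IgG. H3K4me2 over 10 progenitor markers had gene means of 48.6 to 224 CPM in mutant cells, 17.9 to 225 CPM in wild-type Snai1 cells and 16.6 to 239 CPM in empty-vector cells, and summed to 1293 to 1746, 1365 to 1673 and 1478 to 1658 CPM per library in the same order. Over 5 genes of non-blood tissues the gene means were 3.41 to 6.93, 2.65 to 7.58 and 3.62 to 7.23 CPM. Some markers of other blood lineages were marked too. The 3 platelet genes summed to 148 to 183 CPM in mutant libraries, 158 to 195 CPM in wild-type Snai1 libraries and 151 to 162 CPM in empty-vector libraries, the 3 of mature erythroid cells to 94.8 to 119, 76.0 to 92.4 and 77.4 to 91.1 CPM, and the 3 of macrophages to 71.4 to 74.4, 57.1 to 75.2 and 69.3 to 97.0 CPM. The 3 B cell genes summed to 28.0 to 35.6 CPM and the 3 T cell genes to 36.8 to 47.9 CPM over all 9 libraries. Gene means in mutant cells were 43.4 to 66.0 CPM for platelet genes, with a median of 51.1. For mature erythroid genes they were 5.36 to 98.0 CPM (median 6.30) and for macrophage genes 9.20 to 53.3 CPM (median 10.0). For B cell genes they were 3.49 to 16.0 CPM (median 12.1) and for T cell genes 4.48 to 31.7 CPM (median 4.55). No marker was at 0, and the part of other cell types in the results was not tested. Replicate 1 stood apart in every construct. The variance between it and replicates 2 and 3 was 9.49 to 17.7 times the counting error, against 0.98 to 2.30 times between replicates 2 and 3. The labels do not say whether the replicates are separate cultures, so p-values measure the spread between these libraries.

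The nearest genes of the sites, 2279 windows, had strongly marked starts. Their median H3K4me2 level was 66.1, 57.4 and 57.7 CPM in mutant libraries 1, 2 and 3, 61.4, 68.9 and 65.7 CPM in wild-type Snai1 libraries, and 61.9, 62.6 and 61.3 CPM in empty-vector libraries. Over all windows the median was 7.61 to 9.90 CPM in the 9 libraries. At the nearest genes of distal mutant peaks over a wild-type peak it was 61.0 to 74.6 CPM. At those of mutant-only peaks near gene ends it was 65.6 to 76.5 CPM, so strong marking was not particular to these sites. Median H3K4me1 at the sites' genes was 54.5 to 64.3 CPM in mutant libraries, 57.4 to 63.5 CPM in wild-type Snai1 libraries and 55.8 to 60.8 CPM in empty-vector libraries. Over all windows it was 23.7 to 25.5 CPM. In IgG libraries, on column totals, the windows of the sites' genes had medians of 45.3 and 41.3 CPM. These were 1.19 and 1.08 times the median of all windows, against 5.80 to 8.76 times for H3K4me2 and 2.29 to 2.65 times for H3K4me1. With all windows ranked by H3K4me2 and cut into 4 equal groups, the group with the most held 45.9% of the sites' nearest genes, and the group with the least held 3.91%.

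No start window passed an adjusted p of 0.05 by edgeR's quasi-likelihood test in any of the 4 comparisons, among the sites' genes or over all windows (0 of 25742 for H3K4me2 and 0 of 25728 for H3K4me1, 0.0%). Unadjusted p was under 0.05 at 222 of the 2275 tested windows of the sites' genes (9.76%) for H3K4me2 in mutant against wild-type Snai1 cells, where all windows gave 9.9%. It was under 0.05 at 131 (5.76%) against the empty vector, where all windows gave 4.95%. For H3K4me1 it was under 0.05 at 127 (5.58%) against wild-type Snai1 and 34 (1.49%) against the empty vector, where all windows gave 5.24% and 1.61%. The share at the sites' genes was thus close to the background in each. DESeq2, on the same samples, passed 9 of the sites' windows for H3K4me2 and 1 for H3K4me1 in mutant against wild-type Snai1 cells (0.274% and 0.111% of all windows) and none against the empty vector, where it passed 0.0296% of all windows for H3K4me2 and 0.0% for H3K4me1. A term for replicate 1 against the others passed 4 and 3 of the sites' windows against wild-type Snai1 (0.0855% and 0.117% of all windows), and a replicate block passed 2 and 0 (0.0466% and 0.00782% of all windows). The 3 mutant libraries lay above all 3 wild-type Snai1 libraries at 97 of the sites' windows for H3K4me2, with 6.38% of all windows doing so, and below them at 107, with 2.81%. Against the empty vector they lay above at 105 (4.95% of all windows) and below at 55 (1.94%). For H3K4me1 they lay above wild-type Snai1 at 113 (5.91%) and below at 77 (2.78%), and above the empty vector at 108 (4.97%) and below at 66 (3.04%).

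The median log2 fold change of H3K4me2 at the sites' genes in mutant against wild-type Snai1 cells was -0.09, beside 0.04 for all windows, and against the empty vector -0.02 beside 0.03. For H3K4me1 it was -0.05 beside 0.01 against wild-type Snai1, and -0.02 beside -0.0029 against the empty vector. Nearest genes of distal peaks over a wild-type peak had H3K4me2 medians of -0.10 against wild-type Snai1 and -0.03 against the empty vector. Those of mutant-only peaks near gene ends had -0.11 and -0.04. In H3K4me1 the medians of these classes were -0.06 and -0.03, and -0.05 and -0.0087. Taken by replicate, the sign at the sites' genes was not the same. In H3K4me2 the median against wild-type Snai1 was 0.07 in replicate 1 and -0.18 in replicates 2 and 3, and against the empty vector 0.07 and -0.06. In H3K4me1 it was 0.17 and -0.17 against wild-type Snai1, and 0.11 and -0.07 against the empty vector. With replicates 2 and 3 alone, 1513 of 2275 windows of the sites' genes passed for H3K4me2 against wild-type Snai1 (66.5%), 409 higher and 1104 lower, where 58.3% of all windows passed. Against the empty vector 937 passed (41.2%), where 32.7% of all windows did. For H3K4me1 1309 passed against wild-type Snai1 (57.5%) and 965 against the empty vector (42.4%), where 42.9% and 30.3% of all windows did. In this fit empty-vector replicates 2 and 3 of H3K4me1, which varied as sampling noise alone would, entered as separate samples. Over all constructs and both marks, replicates 2 and 3 varied by 0.98 to 2.30 times the counting error. These calls thus measure the spread between replicates 2 and 3 alone and leave out that to replicate 1. The differences also followed the level of the window. In the group of windows with the most H3K4me2 the median against wild-type Snai1 was -0.14 at the sites' genes and -0.12 over all windows, and in the group with the least it was 0.30 and 0.32. Whether levels, replicate or site account for the medians was not tested.

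**Figure D5:**
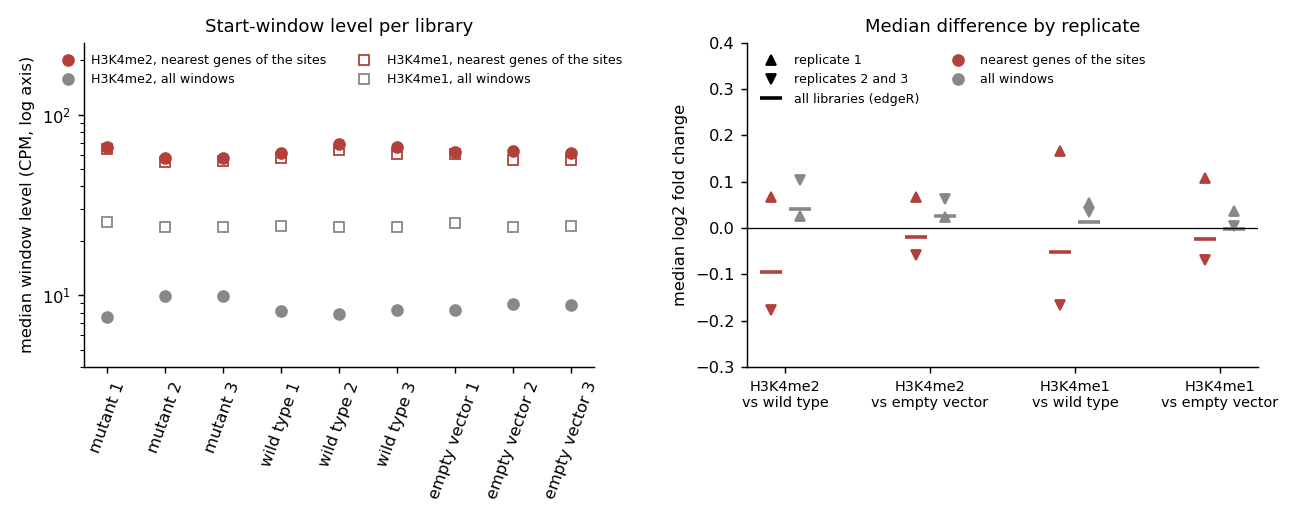
Left, median CPM of start windows in each library (log axis) for the nearest genes of the sites and for all windows, H3K4me2 as filled circles and H3K4me1 as open squares. Right, median log2 fold change of mutant over wild-type Snai1 or over empty vector from replicate 1, from replicates 2 and 3, and from edgeR over all libraries, with the sites' genes in red. The sites' genes lie above 0 in replicate 1 and below 0 in replicates 2 and 3 in all 4 comparisons.

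The windows with the smallest p are given by value, since none passed. Tom1l1, an endosomal adaptor, had 43.0, 41.5 and 35.8 CPM of H3K4me2 in mutant libraries, against 23.6, 13.3 and 15.7 CPM in wild-type Snai1 libraries. Every mutant library was above every wild-type one (log2 fold change 1.18, SE 0.19, edgeR adjusted p = 0.218). Rbms1, an RNA-binding protein, had 4.43, 25.7 and 38.2 CPM in mutant libraries, against 5.71, 3.49 and 2.96 CPM in wild-type Snai1 libraries and 5.42, 5.40 and 4.59 CPM in empty-vector libraries. Its mutant replicate 1 lay within the range of the other cells, and replicates 2 and 3 lay above them (log2 fold change 2.45 against wild-type Snai1, SE 0.56, edgeR adjusted p = 0.503). Cd82, a tetraspanin, had 42.6, 63.4 and 57.3 CPM of H3K4me2 in mutant libraries, against 34.3, 33.4 and 36.6 CPM in wild-type Snai1 libraries (log2 fold change 0.64, edgeR adjusted p = 0.503). It was also among the 10 smallest p for H3K4me1, with 127, 137 and 130 CPM in mutant libraries, against 88.5, 98.0 and 86.8 CPM in wild-type Snai1 libraries (log2 fold change 0.52, edgeR adjusted p = 0.847). The mutant libraries of Cd82 were thus all above the wild-type ones in both marks.

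Nav2, a neuronal guidance gene, had 13.5, 24.8 and 22.6 CPM of H3K4me1 in mutant libraries, against 10.97, 8.07 and 6.53 CPM in wild-type Snai1 libraries (log2 fold change 1.23, edgeR adjusted p = 0.847). Against the empty vector, Adora2b, an adenosine receptor gene, had 35.2, 20.7 and 22.9 CPM of H3K4me2 in mutant libraries, against 36.0, 58.0 and 50.8 CPM in empty-vector libraries (log2 fold change -0.87, edgeR adjusted p = 0.952). Prmt9, an arginine methyltransferase gene, had 54.5, 62.3 and 66.2 CPM of H3K4me1 in mutant libraries, against 50.0, 30.4 and 34.8 CPM in empty-vector libraries (log2 fold change 0.56, edgeR adjusted p = 1.00). All 3 mutant libraries lay below the empty-vector ones for Adora2b and above them for Prmt9. Prmt9 and Gse1 lie on chromosome 8, where the median H3K4me2 of all windows was 0.21 (log2) higher in mutant than in empty-vector cells and 0.25 higher than in wild-type Snai1 cells. H3K4me2 at Prmt9, the mark of these medians, had a log2 fold change of 0.39 against the empty vector (edgeR adjusted p = 0.952).

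At the strongest site's gene, Bicdl1, H3K4me2 was 29.4, 38.0 and 38.8 CPM in mutant libraries, against 19.5, 43.0 and 30.01 CPM in wild-type Snai1 libraries and 21.1, 27.5 and 17.6 CPM in empty-vector libraries. The mutant libraries overlapped the wild-type ones and lay above the empty-vector ones (log2 fold change 0.68, SE 0.26, edgeR adjusted p = 0.952). The start window of Gse1, looked up after its sites were counted, had 321, 245 and 242 CPM of H3K4me2 in mutant libraries, against 298, 217 and 195 CPM in wild-type Snai1 libraries (log2 fold change 0.19, edgeR adjusted p = 0.638). The ranges overlapped, and each mutant library was above the wild-type library of the same number. At the 15 stem and progenitor genes with a site, none passed, and the median log2 fold change of H3K4me2 was -0.09 against wild-type Snai1 and -0.05 against the empty vector. The Snai1 window itself had 56.6, 33.7 and 30.9 CPM of H3K4me2 in mutant libraries, against 32.9, 54.4 and 41.3 CPM in wild-type Snai1 libraries and 26.7, 35.1 and 26.3 CPM in empty-vector libraries. Reads of the vector's cDNA can fall in that window, so it is no measure of the gene alone. Kdm1a had 64.1, 64.6 and 66.3 CPM in mutant libraries, against 56.3, 78.8 and 72.9 CPM in wild-type Snai1 libraries (log2 fold change -0.09, edgeR adjusted p = 0.744).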

How the data were processed

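Of 44 ChIP-seq libraries, Snai1 and input libraries entered only through the peak lists, which the authors deposited as 1 list per construct, with a fold enrichment and a −log10 q for each peak. MACS2 made the peaks and Subread and featureCounts the read counts, on GRCm38 (mm10), per the submitters' processing notes; thresholds and controls are not given in the sources used here. The counts the authors deposited are raw reads per gene start-site window, and all 20 columns matched a sample. Of 27095 gene IDs, 25204 matched RefSeq (GRCm38.p6). Rows equal to an earlier one (31) or without reads (20) were left out.

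Overlaps and distances were computed in Python 3.11.15 with pandas 2.3.3, and shares carry exact Clopper-Pearson 95% intervals, which cover counting error only (scipy 1.17.1). Each mark was fitted over all 3 constructs with edgeR 4.0.16 (TMM, filterByExpr, quasi-likelihood, Benjamini-Hochberg over all windows, two-sided), and checked on simulated data. Replicates 2 and 3 of empty-vector H3K4me1 varied as sampling noise alone would (variance ratio 0.98) and were summed and counted as 1 sample. In the fits with a replicate block and of replicates 2 and 3 alone they were not summed and entered as separate samples. Deviations of same-numbered mutant and empty-vector libraries correlated at 0.15 to 0.36 in H3K4me2 and 0.37 to 0.58 in H3K4me1. Differently numbered replicates 2 and 3 of these constructs correlated at 0.19 and 0.25 in H3K4me2 and at 0.35 and 0.40 in H3K4me1. The numbers thus set replicate 1 apart and did not pair replicates 2 and 3. CPM are TMM-scaled. DESeq2 1.42.0 was an alternative, with those in the closing section. The sites and gene lists were chosen with earlier results of these data known. Named by rule were the 12 sites with the highest −log10 q, the genes holding most sites, sites at each threshold, up to 4 per gene list, and windows with the smallest p; predicted genes were left out of the windows, and 1 item is not reported here.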

Additional observations from a re-analysis of the deposited data

How the results depend on the processing

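The number of sites stayed within 1.5 times of 3339 under every alternative rule but one: a −log10 q of at least 10 left 1050 sites, 67.0% of them inside a gene. Over 10 kb from gene ends, 72.2% lay inside a gene. Calls at the sites' genes, 0 by edgeR in each comparison, depended on replicate 1. With replicates 2 and 3 alone, H3K4me2 gave 1513 against wild-type Snai1 (median log2 fold change -0.18) and 937 against the empty vector (32.7% of all windows), and H3K4me1 gave 1309 and 965 (42.9% and 30.3% of all windows). The empty-vector H3K4me1 libraries that the main fit summed entered that fit as separate samples. The calls of that fit measure only the spread between replicates 2 and 3, which was 0.98 to 2.30 times the counting error. Leaving out 1 library at a time, H3K4me2 calls ranged between 0 and 478 against wild-type Snai1 (478 without mutant replicate 1, with 16.6% of all windows, and 25 without wild-type replicate 1, with 0.957%) and between 0 and 78 against the empty vector (78 without mutant replicate 1, with 2.40%, and 58 without empty-vector replicate 1, with 1.58%), and H3K4me1 calls between 0 and 25 against wild-type Snai1 (25 without mutant replicate 1, with 0.823%) and stayed at 0 against the empty vector. The medians then ranged between -0.17 and -0.06, between -0.10 and 0.0022, between -0.14 and 0.0052, and between -0.11 and 0.04 in the same order. DESeq2 gave 9 calls for H3K4me2 and 1 for H3K4me1 against wild-type Snai1, and a batch term for replicate 1 gave 4 and 3. The cause was not tested. Peaks have no replicates, and the Snai1 read depth is not given in the sources used here.

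Replicate numbers did not pair mutant with wild-type Snai1 libraries, whose same-numbered deviations correlated between -0.21 and 0.13 in H3K4me2 and between -0.08 and 0.25 in H3K4me1. Between mutant and empty-vector libraries the numbers set replicate 1 apart and did not pair the other replicates. Over all constructs a library correlated best with its own number in 12 of 18 cases in each mark. The replicate block gave 2 calls for H3K4me2 against wild-type Snai1 and 0 in the other comparisons, so it changed no call between mutant and empty-vector cells.

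The sign was checked at the windows with the smallest p and at Snai1 and Kdm1a. Of these, Snai1 and Kdm1a, neither past the threshold, were the ones that changed sign. Windows named for the strongest sites and the Gse1 window were not checked in this way. With replicates 2 and 3 alone, the log2 fold change of H3K4me1 at Snai1 was -0.085 against wild-type Snai1, and at Kdm1a -0.042 against wild-type Snai1 and -0.038 against the empty vector. Leaving out 1 library, the ranges were -0.43 to 0.095 for Snai1 H3K4me2 and -0.068 to 0.29 for Snai1 H3K4me1 against wild-type Snai1, -0.019 to 0.52 for Snai1 H3K4me1 against the empty vector, -0.15 to 0.050 for Kdm1a H3K4me2 against the empty vector, and -0.072 to 0.10 and -0.056 to 0.047 for Kdm1a H3K4me1 against wild-type Snai1 and the empty vector.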
